A study of Mus musculus with 28 samples.

Results

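H3K27ac at the genes of the Wnt ligands, their Frizzled receptors and the secreted antagonists of the Sfrp and Dkk families was followed in NMuMG cells during TGF-β treatment. The members were all protein-coding genes of the mm9 annotation whose symbol is Wnt, Fzd, Sfrp or Dkk with a number and, where present, a final a or b, which gave 37 of 22380 genes (19 Wnt, 10 Fzd, 4 Sfrp and 4 Dkk). A peak was counted for a member when its summit lay within 100 kb of a start site of that gene and no other protein-coding start site was closer. This assigned 1839 peaks, 100 to 150 per library or 0.191% to 0.232% of the peaks of a library. Overlapping peaks of all libraries were merged, and 205 of the 89050 merged regions belonged to members, 10 of them promoter regions (summits between 1000 bp before and 100 bp after a start site) and 195 non-promoter regions. The median width of the 205 regions was 574 bp.

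NMuMG is an epithelial cell line of the mouse mammary gland that undergoes EMT, the epithelial to mesenchymal transition, when TGF-β is given. The cells of all groups came from the one line and were untreated (0h) or treated with TGF-β at 2 ng/ml for 4 h (4h) or 24 h (24h), or for the same times with the MEK inhibitor UO126 at 25 µM, added 30 min before TGF-β (ERKi 4h and ERKi 24h), DMSO being the solvent. Chromatin was precipitated with an antibody against H3K27ac, a histone mark of active promoters and enhancers, and each of the 5 conditions had 3 replicate libraries. The questions were where TGF-β changes the mark at these genes and how much of the change depends on ERK signalling. No group was left untreated for 4 h or 24 h, and none had UO126 without TGF-β. Changes from 0h therefore cannot be told apart from those of time in culture. Whether ERKi acts on the response to TGF-β or on ERK activity present without it cannot be told apart either. The labels do not say whether replicates were separate cultures, so the p-values measure the spread between these libraries, which may be technical. A lower value can mean fewer cells with the mark or less of the mark per cell, and these cannot be told apart.

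Wnt proteins are secreted lipid-modified ligands that bind Frizzled receptors in the cell membrane together with the co-receptors Lrp5 and Lrp6. In the canonical branch this binding keeps β-catenin from degradation and lets it act with TCF/LEF factors, and in the non-canonical branches Frizzleds act on cell polarity and movement. Sfrp proteins carry a Frizzled-like domain and bind the ligands, while Dkk1, Dkk2 and Dkk4 bind Lrp5 and Lrp6. In the mammary gland, Wnt signals act in the branching of the ducts and in the upkeep of stem cells.

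The deposited lists held 50445 to 69180 peaks per library. The height of a peak is given as the number of fragments over its summit, solved from the fold enrichment and the p-value in the lists. Whether the local background in the lists came from the ChIP library itself or from an input library is not given in the sources used here. For regions with a peak in every library the heights are scaled fragments. All libraries were brought to the same median height for this (factors 0.746 to 1.3). In other regions the heights are fragments before scaling. A difference between libraries there also holds the difference of their scale. Member peaks held 10 to 424 fragments before scaling. A library without a peak in a region has no value there, which is not a value of 0. ERKi 4h replicate 1 stands apart in one respect, since the library number within its peak names is out of the order of the others, and the calls for ERKi 4h are given with and without it. Of the epithelial markers, Cdh1 and Krt8 had a promoter peak in 15 of 15 libraries, Krt18 had a peak within 2500 bp in 15 and Cldn4 in 11, while Epcam and Esrp1 had none in that distance. Among fibroblast markers, Col6a3 had a peak within 2500 bp in 15 libraries, Pdgfra in 3, and Twist2 and Lum in 0. The blood marker Itgam had a peak within that distance in 4 libraries, and the blood markers Ptprc and Cd68 and the endothelial markers Pecam1, Cdh5 and Tie1 had a peak in 0. The part of other cell types in the results was not tested.

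The regions with the smallest adjusted p in each comparison and direction are shown as 300 bp of mm9 centred on the summit, plus strand, since these 5 stretches carry the values below. In the higher direction they are chr3:131784809-131785108 in an intron of Dkk2 (4h), chr15:85434631-85434930 upstream of Wnt7b (24h) and chr4:136833705-136834004 in an intron of Wnt4 (ERKi 24h). In the lower direction they are chr11:103596652-103596951 in an intron of Wnt9b (24h), chr1:64844049-64844348 in an intron of Plekhm3, upstream of Fzd5 (ERKi 4h), and the same Wnt7b stretch (ERKi 24h). Capitals mark a match to GGAATG, the TEAD motif, on either strand.
Dkk2, 36.7 kb downstream of the start: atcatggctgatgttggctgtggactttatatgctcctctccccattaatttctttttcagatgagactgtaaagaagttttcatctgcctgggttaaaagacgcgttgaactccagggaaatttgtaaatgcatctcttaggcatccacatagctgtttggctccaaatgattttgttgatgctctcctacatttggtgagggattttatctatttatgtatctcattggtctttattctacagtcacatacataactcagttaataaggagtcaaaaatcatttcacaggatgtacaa
Wnt7b, 22.5 kb upstream: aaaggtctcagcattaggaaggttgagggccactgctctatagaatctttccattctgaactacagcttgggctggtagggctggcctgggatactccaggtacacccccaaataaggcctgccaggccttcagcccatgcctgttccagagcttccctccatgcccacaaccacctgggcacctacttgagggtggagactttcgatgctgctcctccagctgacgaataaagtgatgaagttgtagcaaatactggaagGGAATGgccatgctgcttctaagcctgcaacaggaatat
Wnt9b, 14.3 kb downstream: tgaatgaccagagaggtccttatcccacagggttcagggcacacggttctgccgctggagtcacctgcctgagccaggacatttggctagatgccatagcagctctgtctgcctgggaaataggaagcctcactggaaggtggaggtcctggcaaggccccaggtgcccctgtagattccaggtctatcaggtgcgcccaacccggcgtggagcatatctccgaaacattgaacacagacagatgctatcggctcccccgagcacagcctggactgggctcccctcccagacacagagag
Fzd5, 59.9 kb upstream: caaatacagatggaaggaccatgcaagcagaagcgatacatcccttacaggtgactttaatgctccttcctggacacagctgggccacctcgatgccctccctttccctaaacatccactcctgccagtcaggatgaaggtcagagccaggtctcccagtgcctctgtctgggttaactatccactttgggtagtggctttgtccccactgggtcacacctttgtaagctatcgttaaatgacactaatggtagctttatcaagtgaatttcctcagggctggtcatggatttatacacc
Wnt4, 451 bp downstream: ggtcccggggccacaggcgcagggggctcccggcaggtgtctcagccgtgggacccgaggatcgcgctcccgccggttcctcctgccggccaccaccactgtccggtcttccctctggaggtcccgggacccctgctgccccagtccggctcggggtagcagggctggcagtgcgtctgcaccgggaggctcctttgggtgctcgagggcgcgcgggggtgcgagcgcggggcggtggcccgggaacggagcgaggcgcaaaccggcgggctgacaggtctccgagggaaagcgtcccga
The GC content was 37.3% in the Dkk2 stretch, 52.3% in that of Wnt7b, 59.0% in that of Wnt9b, 49.3% in that of Fzd5 and 74.7% in that of Wnt4. Of 7 motifs searched on both strands (TGANTCA of AP-1, TGTGGT of RUNX, CCGGAA of ETS, TGTTTAC of forkhead factors, CTTTGAA of TCF/LEF, GTCTAGAC of SMAD and GGAATG of TEAD), 1 match to GGAATG was found in the Wnt7b stretch and none in the others. Across all 205 member regions, TGANTCA was present in 9.76% of the 300 bp windows against 9.99% of the windows of all regions. The shares were 20.5% against 20.4% for TGTGGT, 17.6% against 16.3% for GGAATG, 4.39% against 6.68% for CTTTGAA, 3.41% against 4.29% for TGTTTAC, 2.93% against 5.67% for CCGGAA and 0.0% against 0.325% for GTCTAGAC. These matches describe letters and not bound sites.

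The mark was spread unevenly over the families. Peaks were assigned to 28 of the 37 members, and 9 had none in any library, namely Wnt3, Wnt3a, Wnt5a, Wnt8a, Fzd8, Fzd9, Fzd10, Sfrp4 and Dkk4. The 19 Wnt genes held 116 regions over 15 genes, the 10 Fzd genes 57 regions over 7, the 4 Sfrp genes 13 over 3 and the 4 Dkk genes 19 over 3. A peak in all 15 libraries was seen in 61 member regions (29.8%, against 30.2% of all regions), of which 5 were promoter regions, and in 55 regions (26.8%, against 22.6%) the peak was seen in 1 library only. The promoter carried a peak in every library at Wnt4, Wnt7b, Fzd2, Fzd5 and Fzd7. It carried one in some libraries at Wnt1, Wnt5b, Wnt7a, Wnt9a, Fzd1 and Fzd3. These numbers depend on the limit of 100 bp after the start. The 1 Fzd3 region had a peak in every library, with the summit inside the limit in 7 of them. Regions a little beyond the limit at Fzd1 and Fzd4 also had a peak in every library. Wnt7b had the most non-promoter peaks, 19 to 27 per library, followed by Fzd5 with 10 to 15. The heat map of peak numbers shows these differences between genes in each library.

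**Figure D1:**
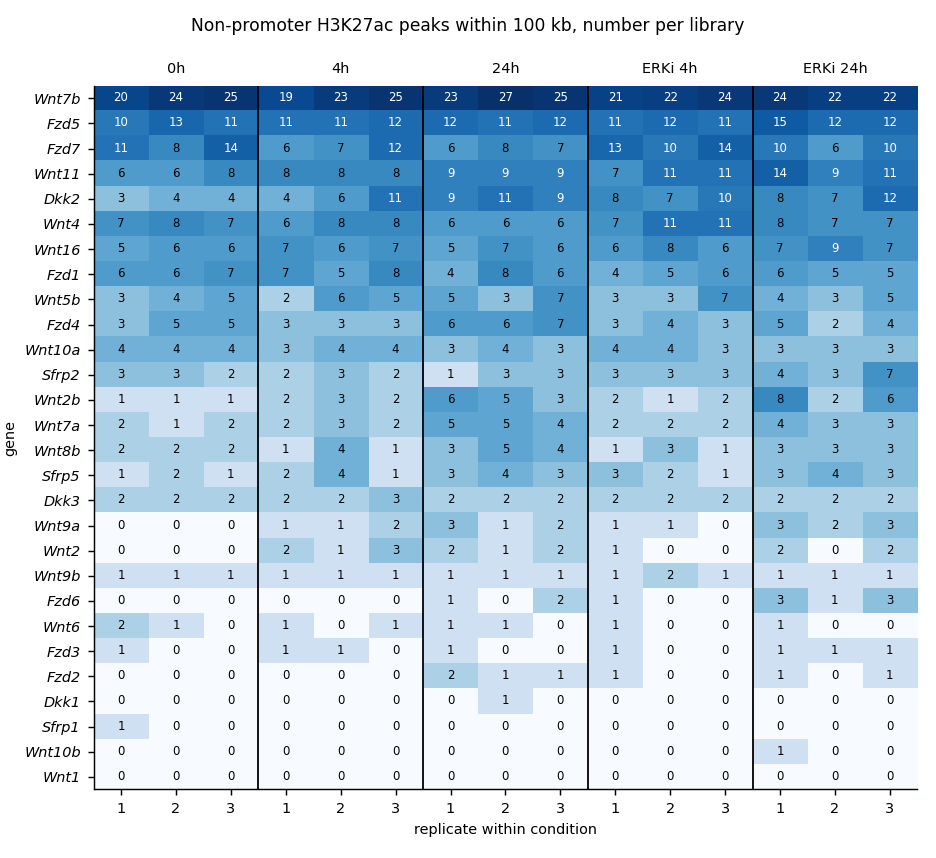
Number of non-promoter H3K27ac peaks within 100 kb whose nearest start site is that of the gene (rows) in each library (columns, replicates 1 to 3 of the 5 conditions), with the shade on a log scale of the printed number. Wnt7b holds 19 to 27 peaks in every library, while Wnt9a and Wnt2 have 0 in all 0h libraries and 1 to 3 in each 4h and 24h library.

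The number of non-promoter member peaks was 101 ± 6.51 (SD, n = 3 throughout) at 0h, 108 ± 14.1 at 4h and 124 ± 5.51 at 24h. All 24h libraries lay above all 0h libraries, with a difference of 23.7 and an exact permutation p = 0.1 (two-sided), the smallest that 3 against 3 libraries can give. When each list was limited to its 20000 peaks of highest significance, the same difference was −0.333 (exact p = 1.0). The full lists were also longer at 24h, with 56759, 61890 and 68050 peaks against 52221, 53603 and 59658 at 0h. All member peaks were 0.224%, 0.226% and 0.197% of the lists at 24h and 0.191%, 0.203% and 0.191% at 0h. At 4h the number of non-promoter member peaks differed from that at 0h by 7.33 (exact p = 0.5). Under ERKi the numbers were 113 ± 5.51 at 4h and 127 ± 17.8 at 24h, which differ from those without ERKi by 4.67 (exact p = 0.8, and a difference of 7.5 without ERKi 4h replicate 1) and 2.67 (exact p = 0.9). Promoter peaks numbered 7.0 ± 1.0 at 0h, 7.67 ± 0.577 at 4h, 9.33 ± 1.15 at 24h, 8.0 ± 1.0 at ERKi 4h and 8.33 ± 0.577 at ERKi 24h. The promoter counts of the groups overlapped in all 4 comparisons (exact p between 0.2 and 1.0, where 0.1 is the smallest possible). The largest difference was that of 2.33 at 24h against 0h (exact p = 0.2), which was 3.67 (exact p = 0.1) when promoters reached 2500 bp.

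The 61 regions with a peak in every library, which belong to 17 members, were compared by limma on log2 of the scaled fragments. The fit ran over 26934 such regions with Benjamini-Hochberg adjustment over all of them and a threshold of 0.05. Having a peak in every library was a condition for this test, so the regions seen in few libraries are described by their pattern of peaks further on. At 4h, 2 member regions were higher than at 0h and 0 lower, where 3.55% of all regions were higher and 0.26% lower. At 24h, 10 were higher and 7 lower, where 10.4% of all regions were higher and 7.83% lower. ERKi 4h against 4h gave 0 higher (0.0149% of all) and 2 lower (0.282% of all), and ERKi 24h against 24h gave 2 higher (3.69% of all) and 3 lower (4.32% of all). The 0 in the lower direction at 4h and in the higher direction at ERKi 4h stand beside 8 and 7 member regions with an unadjusted p under 0.05 in either direction. The 4h and 24h comparisons share the 0h libraries, and the 24h libraries enter both the 24h and the ERKi 24h comparison.

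The median change of the 61 regions was 0.067 at 4h (all regions −0.048), −0.061 at 24h (all regions −0.067), 0.062 at ERKi 4h (all regions 0.0047) and 0.17 at ERKi 24h (all regions 0.021) on the log2 scale. By family, the median at 24h was −0.086 for 37 Wnt regions, −0.13 for 19 Fzd regions, −0.86 for the 1 Sfrp region and 0.71 for 4 Dkk regions. The calls at 24h were 4 higher and 5 lower among Wnt regions, 3 higher and 2 lower among Fzd regions and 3 higher and 0 lower among Dkk regions. Calls in both directions were seen around the same gene at Wnt7b and at Fzd7.

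Libraries with the same replicate number in different conditions deviated together, and a fit with the replicate number as a block called more regions. With the block, 8 member regions were higher (11.0% of all regions) and 1 lower (5.0%) at 4h, and 13 higher (17.3%) and 14 lower (18.9%) at 24h. With the block ERKi 4h against 4h gave 3 higher (0.939% of all) and 2 lower (2.89%), and ERKi 24h against 24h gave 20 higher (13.8%) and 5 lower (12.6%). The difference between the effect of ERKi at 24h and at 4h was past the threshold in 0 member regions without the block (7 with an unadjusted p under 0.05). With the block it was higher in 3 (1.83% of all regions) and lower in 2 (1.71%). Blocked values are given with the regions where the block changes a call. Where a call is said to be lost without a library, the fit is that without the block, unless the block is named.

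**Figure D2:**
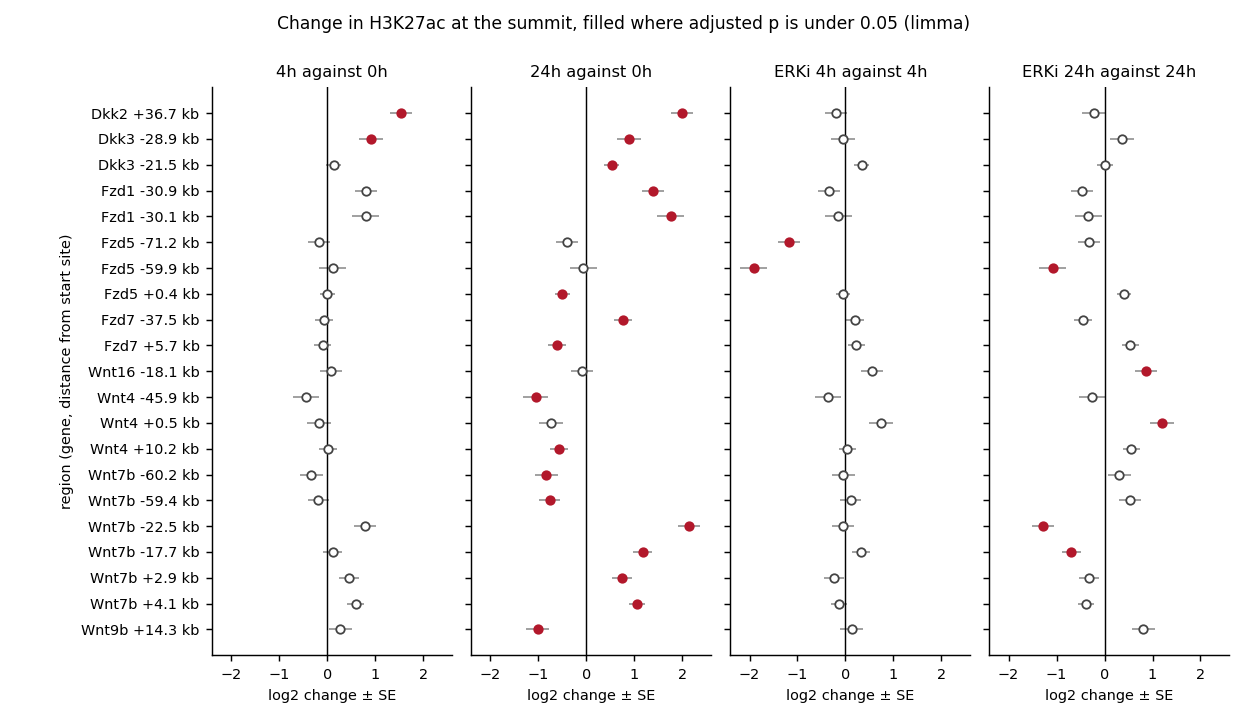
Log2 change of scaled fragments (x axis, ± SE) in the 21 member regions with a call in at least 1 of the 4 comparisons (rows, with the distance from the start site), filled where the adjusted p from limma is under 0.05. At 24h the values run from −1.06 at Wnt4 to 2.13 at Wnt7b, and in ERKi 4h the filled points are both near Fzd5.

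Wnt7b, a ligand of the canonical branch, had 15 regions with a peak in every library, more than any other member, and changes in both directions at 24h. The region 22.5 kb upstream (chr15:85434033-85435408, intergenic) held 24.6, 24.9 and 17.5 scaled fragments at 0h, 43.6, 34.3 and 36.8 at 4h and 113, 68.0 and 116 at 24h. It held 41.0, 39.1 and 30.8 at ERKi 4h and 46.7, 41.7 and 32.0 at ERKi 24h. All 24h libraries lay above the libraries of every other condition. The change at 24h was 2.13 ± 0.23 (log2 ± SE, adjusted p = 2.21e-05), or 4.37-fold, and ERKi 24h was 2.43-fold lower than 24h (−1.28 ± 0.23, adjusted p = 0.00326). At 4h the change was 0.79 ± 0.23 (adjusted p = 0.0777, and 0.00756 with the block). The ERKi 4h value differed from 4h by −0.052 (adjusted p = 1.0).

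The next Wnt7b region, 17.7 kb upstream (chr15:85429172-85430850), held 24.1 ± 1.53 scaled fragments at 0h, 26.2 ± 2.78 at 4h and 54.7 ± 10.3 at 24h. It rose by 1.17 ± 0.19 at 24h (adjusted p = 0.000532) and was lower by 0.69 ± 0.19 at ERKi 24h, where the mean was 33.6 ± 3.45 (log2 −0.69, adjusted p = 0.0377). The 24h libraries at 43.4 to 63.3 did not overlap with 0h or with ERKi 24h. The call under ERKi 24h was lost without 24h replicate 1 or 3 or any one of the ERKi 24h libraries, with log2 values of −0.77 to −0.58 and adjusted p between 0.0568 and 0.124.

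Within the Wnt7b gene, both intronic regions close to the start also rose at 24h. The region 4.1 kb downstream (chr15:85403866-85405159) held 132 ± 13.6 scaled fragments at 0h, 199 ± 8.89 at 4h and 276 ± 28.0 at 24h, a change of 1.06 ± 0.17 at 24h (adjusted p = 0.00053) and of 0.59 at 4h (adjusted p = 0.081, and 0.00371 with the block). ERKi 24h held 212 ± 34.1 there, a difference of −0.39 (adjusted p = 0.213, and 0.0291 with the block). The region 2.9 kb downstream (chr15:85405279-85405990) went from 168 ± 32.5 to 280 ± 29.9 at 24h, a change of 0.75 ± 0.21 (adjusted p = 0.021). That call was lost without 0h replicate 1, 24h replicate 1 or 24h replicate 3 (log2 0.59 to 0.78, adjusted p between 0.0526 and 0.11). At 4h the region held 231 ± 47.0 (0.46, adjusted p = 0.344, and 0.0275 with the block).

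The Wnt7b promoter region (chr15:85410046-85412300, which also holds the noncoding gene AU022754) was among the highest peaks of each library. Its scaled fragments were 233 ± 20 at 0h, 281 ± 17.7 at 4h, 296 ± 30.3 at 24h, 294 ± 19.2 at ERKi 4h and 312 ± 1.87 at ERKi 24h. The change at 24h was 0.34 ± 0.14 (adjusted p = 0.12, and 0.0159 with the block). As a percentile among the peaks of the library, the promoter stood at 97.9 ± 0.602 at 0h, 99.2 ± 0.149 at 4h and 99.4 ± 0.182 at 24h, with an exact permutation p = 0.1 for either time, the smallest possible. By fold enrichment the direction was the opposite, with percentile changes of −3.64 at 4h and −9.31 at 24h (exact p = 0.1 for each).

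Further upstream of Wnt7b, 2 neighbouring regions were lower at 24h. The region 60.2 kb upstream (chr15:85472227-85472832) held 316, 232 and 305 scaled fragments at 0h, 160, 123 and 200 at 24h and 203 ± 60.8 at ERKi 24h. It fell by 0.84 ± 0.24 on the log2 scale at 24h (adjusted p = 0.0226). The region 59.4 kb upstream (chr15:85471376-85472137) held 229 ± 44.3 at 0h and 136 ± 32.9 at 24h, a change of −0.76 ± 0.22 (adjusted p = 0.0219). Both calls were lost without 0h replicate 1, 0h replicate 3 or 24h replicate 2, and the first also without 24h replicate 1 (log2 −0.85 to −0.66 with adjusted p 0.0628 to 0.0905, and −0.69 to −0.56 with adjusted p 0.082 to 0.0954). At ERKi 24h the region 59.4 kb upstream held 193 ± 31.5 (0.53, adjusted p = 0.173, and 0.00443 with the block). The region 71.9 kb upstream was called with the block alone, at ERKi 24h (0.36, adjusted p = 0.0376, and 0.244 without it). The plot by distance shows the heights of all 15 tested Wnt7b regions, of which 4 were called higher and 2 lower at 24h. By −log10 p in place of fragments, the region 10421 bp downstream was also called lower at 24h.

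**Figure D3:**
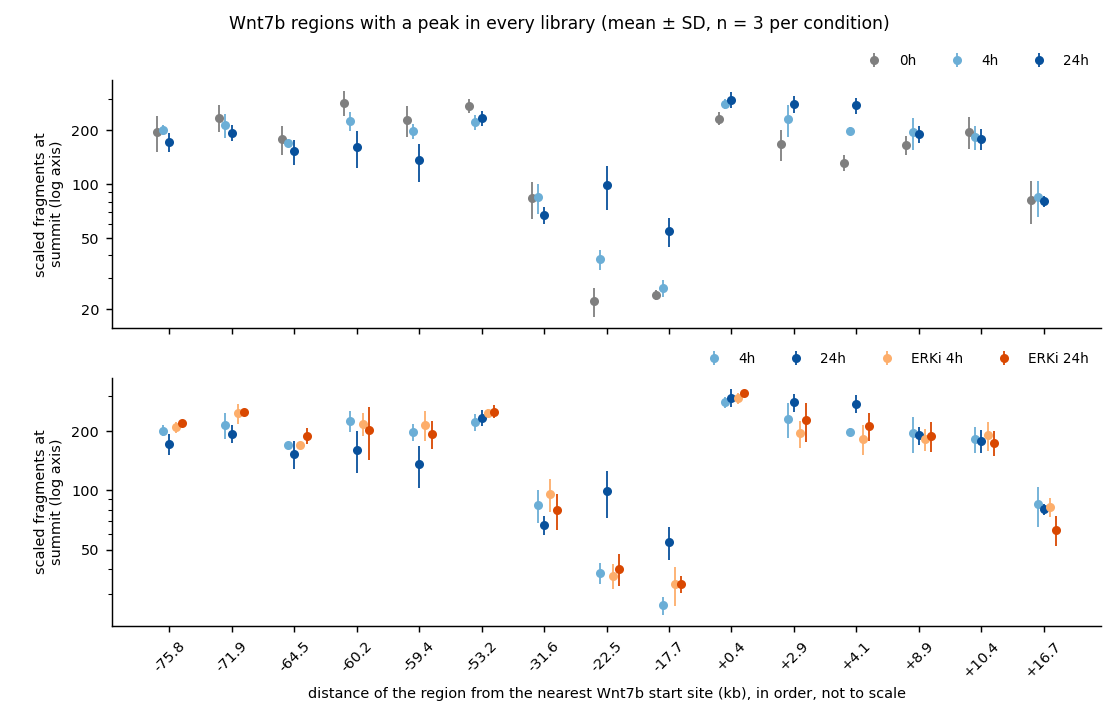
Scaled fragments at the summit (log axis, mean ± SD, n = 3 libraries per condition) in the 15 Wnt7b regions with a peak in every library, in order of their distance from the start site. The upper panel gives 0h, 4h and 24h and the lower panel 4h and 24h without and with ERKi. The 24h mean at 22.5 kb upstream is 99.0 against 22.3 at 0h and 40.1 at ERKi 24h.

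Wnt4, the ligand that acts after progesterone in the side-branching of the mammary ducts, was lower at 24h in 2 of its 6 tested regions, and in 5 of 6 with the block. The region 45.9 kb upstream (chr4:136786574-136788582, intergenic) held 122, 158 and 180 scaled fragments at 0h, 98.6, 102 and 141 at 4h and 48.9, 75.0 and 106 at 24h. The libraries of 24h all lay below those of 0h, and the change was −1.06 ± 0.27 (adjusted p = 0.0123). ERKi 24h was no higher there, at 61.4 ± 13.3 against 76.5 ± 28.5 without ERKi (−0.27, adjusted p = 0.668). At 4h the change was −0.44 (adjusted p = 0.55, and 0.0277 with the block). The intronic region 10235 bp downstream (chr4:136841882-136843961) went from 68.1 ± 7.84 to 46.0 ± 8.36 at 24h (−0.57 ± 0.18, adjusted p = 0.0385) and stood at 67.3 ± 7.56 at ERKi 24h (0.56, adjusted p = 0.0756, and 0.00691 with the block). The first of these 24h calls was lost without 0h replicate 3 or 24h replicate 1 (log2 −0.93 to −0.77, adjusted p 0.0569 to 0.0785). The other was lost without any one of the 0h libraries, 24h replicate 1 or 24h replicate 2 (log2 −0.63 to −0.47, adjusted p 0.0611 to 0.168).

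The intronic Wnt4 region 451 bp downstream of the start (chr4:136833540-136834614) was the one that rose most under ERKi. It held 54.4, 67.1 and 40.5 scaled fragments at 0h, 46.3, 53.9 and 40.5 at 4h and 30.5, 43.4 and 24.7 at 24h, but 68.4, 106 and 64.6 at ERKi 4h and 64.7, 88.5 and 67.2 at ERKi 24h. All ERKi libraries of either time lay above all 4h and 24h libraries. ERKi 24h was 2.27-fold higher than 24h (1.19 ± 0.25, adjusted p = 0.00933). The changes of 0.74 at ERKi 4h (adjusted p = 0.461, and 0.00349 with the block or 0.011 with the block and without ERKi 4h replicate 1) and of −0.73 at 24h against 0h (adjusted p = 0.0588, and 0.000219 with the block) were called with the block alone. With the block, ERKi 24h was also higher in the regions 76.5 kb upstream (0.81, adjusted p = 0.00362) and 21.6 kb upstream (0.65, adjusted p = 0.00275), which were not called without it (adjusted p = 0.141 and 0.115). At 24h these 2 regions were lower with the block (−0.69 and −0.67, adjusted p = 0.00678 and 0.00128, and 0.157 and 0.0649 without it).

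The promoter class ends 100 bp after the start. The Wnt4 region close to the start that was called at ERKi 24h is therefore counted apart from the promoter region. The Wnt4 promoter region held 28.5 ± 6.59 scaled fragments at 0h, 34.0 ± 3.69 at 4h, 24.8 ± 5.96 at 24h, 46.0 ± 6.4 at ERKi 4h and 33.6 ± 5.46 at ERKi 24h, with no call. Its percentile was 48.8 ± 6.54 at ERKi 4h against 37.6 ± 1.93 at 4h (exact permutation p = 0.1), a difference of 11.1 that was 8.53 without ERKi 4h replicate 1 and −3.82 (exact p = 0.8) by fold enrichment, and 39.9 ± 15.4 at ERKi 24h against 26.7 ± 7.22 at 24h (exact p = 0.3, and a difference of −24.0 with exact p = 0.2 by fold enrichment). The number of non-promoter Wnt4 peaks was 7, 8 and 7 at 0h, 6 in each 24h library and 8, 7 and 7 at ERKi 24h.

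**Figure D4:**
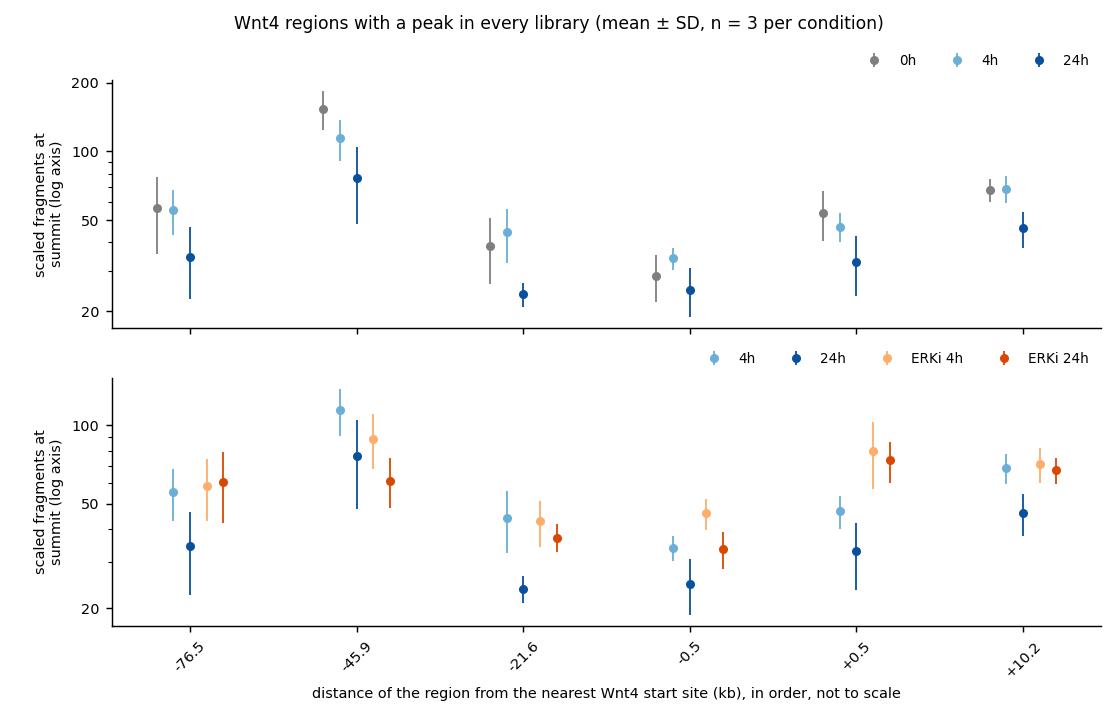
Scaled fragments at the summit (log axis, mean ± SD, n = 3 libraries per condition) in the 6 Wnt4 regions with a peak in every library, in order of their distance from the start site. The upper panel gives 0h, 4h and 24h and the lower panel 4h and 24h without and with ERKi. At 451 bp downstream the ERKi means are 79.7 and 73.5 against 46.9 and 32.9 without ERKi.

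Wnt9b, a ligand known from the induction of kidney tubules, had 1 tested region, in its intron 14.3 kb downstream of the start (chr11:103596054-103597433). It held 37.3, 34.8 and 35.0 scaled fragments at 0h, 44.5, 38.0 and 47.1 at 4h and, at the lowest, 11.3, 29.3 and 16.8 at 24h. With ERKi the libraries held 44.9, 46.7 and 50.2 at 4h and 30.1, 32.6 and 30.5 at 24h. The 24h libraries were the lowest and the change was −1.01 ± 0.24 (adjusted p = 0.0083), 2.01-fold lower than at 0h. ERKi 24h differed from 24h by 0.81 ± 0.24 (adjusted p = 0.0553, and 0.0123 with the block).

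Wnt16, a ligand with a role in bone, had 5 tested regions. The one 18.1 kb upstream (chr6:22219351-22220434) held 30.5, 53.9 and 38.5 scaled fragments at 24h and 66.2, 72.9 and 79.7 at ERKi 24h, without overlap (0.87 ± 0.23, adjusted p = 0.0263). Its 0h mean was 42.6 ± 5.76. The call was lost without 24h replicate 1 or 3 or ERKi 24h replicate 2 or 3 (log2 0.67 to 0.86, adjusted p 0.0656 to 0.13). With the block, 4 of the 5 Wnt16 regions were higher at ERKi 24h, the others being those 28.9 kb (0.51, adjusted p = 0.0397), 17.5 kb (0.67, adjusted p = 0.00345) and 8.47 kb upstream (0.67, adjusted p = 0.0111). The block also called the region 28.9 kb upstream higher at 4h (0.58, adjusted p = 0.0321, and 0.319 without it) and the one 8.47 kb upstream lower at 24h (−0.69, adjusted p = 0.00597, and 0.12 without it). At ERKi 4h the region 17.5 kb upstream was higher with the block (0.6, adjusted p = 0.0344, and 0.549 without it), a call lost without ERKi 4h replicate 1 (0.54, adjusted p = 0.152 with the block).

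Wnt11, a ligand of the non-canonical branch, had 4 tested regions and no call without the block. The region 64.3 kb downstream of its start, in an intron of Uvrag, held 147 ± 23.2 scaled fragments at 0h, 98.2 ± 28.2 at 24h and 150 ± 29.1 at ERKi 24h. With the block the 24h change of −0.61 had an adjusted p = 0.000337 and the ERKi 24h difference of 0.63 an adjusted p = 0.000483 (0.0816 and 0.11 without it). The region 20 kb upstream of Wnt11 was higher at ERKi 4h with the block (0.46, adjusted p = 0.0403, and 0.797 without it), and without ERKi 4h replicate 1 the blocked difference was 0.55 (adjusted p = 0.0568). The 3 regions of Wnt10a and the 1 of Wnt7a with a peak in every library had no call in either fit. Wnt6 had 0 to 2 non-promoter peaks per library, Wnt10b had 1 in 1 library, and Wnt1 had promoter peaks alone. Of the 2 Wnt5b regions, the one 98.1 kb upstream was called with the block, at ERKi 24h (0.53, adjusted p = 0.0497, and 0.297 without it).

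Regions of other ligand genes had no peak at 0h and gained one. The region 207 bp downstream of the Wnt9a start, in an intron of the gene (chr11:59120469-59121861), had no peak in the 0h libraries, while the Wnt9a promoter had one in 0h replicate 1 (percentile 16.4). The intronic region held 24, 13 and 14 fragments (not scaled) at 4h, 35, 15 and 15 at 24h and 61, 29 and 29 at ERKi 24h, while at ERKi 4h replicates 1 and 2 had a peak, with 21 and 17. The region 51.5 kb downstream of Wnt2 (chr6:17928588-17929779) held 26, 13 and 16 fragments at 4h and 101, 51 and 70 at 24h, again with no peak at 0h. It had a peak of 18 fragments in 1 library at ERKi 4h and of 90 and 60 in 2 libraries at ERKi 24h. The Wnt7a intronic region 22.2 kb downstream (chr6:91338667-91340220) held 15, 15 and 16 fragments at 4h and 52, 44 and 46 at 24h. It held 13, 14 and 12 at ERKi 4h and 52, 16 and 38 at ERKi 24h. These 3 regions were seen in every library with TGF-β alone and in none without it.

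At Wnt7a, known from the female reproductive tract, the promoter also gained a peak at 24h (chr6:91360706-91361875, with 21, 24 and 15 fragments), which ERKi 24h showed in replicate 1 alone (19 fragments). A region 7.8 kb upstream of the nearest Wnt7a start held 39, 24 and 31 fragments at 24h and had a peak in 2 of 3 libraries at ERKi 24h (18 and 10). Wnt2b gained regions 38.6 kb upstream (97, 32 and 75 fragments at 24h) and 32.5 kb upstream (65, 39 and 70). At ERKi 24h the first held 44, 24 and 38 fragments and the second 30 and 26 in 2 libraries. The region 33.0 kb upstream of Wnt8b held 67, 32 and 51 fragments at 24h and 123, 43 and 65 at ERKi 24h. All heights in this paragraph are fragments before scaling. The factors of the libraries were 0.873, 1.17 and 0.988 at 24h and 0.753, 1.3 and 0.781 at ERKi 24h. The region 40.9 kb upstream of Wnt11 held 27, 18 and 26 at 24h and 53 and 45 in 2 libraries at ERKi 24h. The depth of a list limits such patterns, since a peak under the calling threshold is not in it.

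Counted over all members, 4 of 132 regions with a peak in either condition were in every 4h library and in no 0h library (1.65% of all such regions) and 0 showed the opposite (0.565% of all). At 24h, 14 of 158 were gained (5.98% of all) and 3 were lost (2.52% of all). For ERKi 4h against 4h, 2 of 137 were gained (0.316% of all) and 0 lost (0.449% of all), and for ERKi 24h against 24h 1 of 175 was gained (1.73% of all) and 1 lost (1.41% of all). The regions in every ERKi 4h library and no 4h library were 59.4 kb upstream of Fzd7 (17, 10 and 18 fragments) and 19.4 kb upstream of Wnt8b (34, 36 and 23), both of which also had a peak in 2 of 3 libraries at 0h. The one gained at ERKi 24h lay in the intron of Uvrag 73.9 kb downstream of Wnt11, with 12, 12 and 15 fragments.

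The number of non-promoter peaks of a gene did not overlap between the groups, with more at 4h than at 0h, for Wnt9a, Wnt2 and Wnt2b among 23 members with such a peak (4.5% of all genes). The opposite was seen for 0 members (1.13% of all genes). At 24h more peaks were seen at 10 of 26 members (12.3% of all genes), namely Wnt2, Wnt2b, Wnt7a, Wnt8b, Wnt9a, Wnt11, Fzd2, Fzd4, Sfrp5 and Dkk2, and fewer at Wnt4 (4.07% of all genes). ERKi 4h against 4h gave 0 of 24 members with more (1.5% of all genes) and 0 with fewer (1.1%). ERKi 24h against 24h gave more at Wnt4 (3.93% of all genes) and fewer at Fzd4 (3.1%) among 26 members. Wnt2b had 1 peak in each 0h library, 2, 3 and 2 at 4h and 6, 5 and 3 at 24h, and at ERKi 24h the number was 8, 2 and 6.

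Among the receptors, Fzd1 rose at 24h in 2 of its 3 tested regions. The region 30.1 kb upstream (chr5:4787656-4788617, intergenic) held 42.5, 55.9 and 47.0 scaled fragments at 0h, 75.1, 72.2 and 108 at 4h and 161, 110 and 244 at 24h. It held 83.0, 55.5 and 93.3 at ERKi 4h and 134, 102 and 158 at ERKi 24h. The 24h libraries lay above all of those at 0h and 4h, and the change against 0h was 1.76 ± 0.28 (adjusted p = 0.000418), or 3.39-fold. The neighbouring region 30.9 kb upstream (chr5:4788668-4789702) went from 46.7 ± 0.589 at 0h to 82.0 ± 14.4 at 4h and 128 ± 44.4 at 24h (1.39 ± 0.23 at 24h, adjusted p = 0.000607). With the block both were also higher at 4h (adjusted p = 0.00948 and 0.00189). ERKi 24h was lower in the region 30.9 kb upstream with the block (89.6 ± 18.5, −0.47, adjusted p = 0.0302, and 0.267 without it). The region 324 bp downstream of the Fzd1 start held 109 ± 8.8 at 0h and 120 ± 9.82 at 24h, with no call.

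Fzd5, a receptor of the canonical branch, carried both calls made for ERKi 4h. They lie in introns of Plekhm3, whose start sites are farther from them than that of Fzd5. The region 59.9 kb upstream of Fzd5 (chr1:64841825-64845048) held 67.9, 111 and 137 scaled fragments at 0h, 93.4, 109 and 126 at 4h and 77.7, 104 and 112 at 24h. At ERKi 4h it held 19.5, 32.8 and 37.9 and at ERKi 24h 36.9, 46.9 and 55.5, so that all ERKi libraries lay below all others. ERKi 4h was 3.75-fold lower than 4h (−1.91 ± 0.28, adjusted p = 0.0114) and ERKi 24h 2.11-fold lower than 24h (−1.08 ± 0.28, adjusted p = 0.0266), while 24h against 0h differed by −0.061 (adjusted p = 0.933). The region 71.2 kb upstream (chr1:64854910-64856760) held 99.5, 107 and 139 at 4h and 38.1, 73.2 and 46.1 at ERKi 4h (−1.17 ± 0.23, adjusted p = 0.0401). Its ERKi 24h mean of 77.9 ± 6.42 differed from 97.5 ± 9.77 at 24h by −0.32 (adjusted p = 0.49). Of the 6 Fzd5 regions in Plekhm3, 4 had a peak in every library, and those 50.5 and 89.3 kb upstream differed by −0.24 and −0.18 at ERKi 4h (adjusted p = 1.0 for each). The region 50.5 kb upstream was higher at ERKi 24h with the block (0.42, adjusted p = 0.0273, and 0.302 without it). In the fit without the block, these calls were lost when some of the libraries were left out one at a time. Without ERKi 4h replicate 1, the library with the peak-name number out of order, neither region was called at ERKi 4h, while with the block both were (−1.8, adjusted p = 0.0001, and −1.04, adjusted p = 0.0181, without that library). The region 59.9 kb upstream was also lost without 4h replicate 3 (log2 −1.8 to −1.62, adjusted p 0.0829 to 0.105). The region 71.2 kb upstream was also lost without any one of the 4h libraries or ERKi 4h replicate 3 (log2 −1.27 to −0.97, adjusted p 0.101 to 0.289). The ERKi 24h call was lost without 24h replicate 2 or 3 or ERKi 24h replicate 1 or 2 (log2 −1.1 to −0.92, adjusted p 0.0651 to 0.105).

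At the Fzd5 gene itself the region 388 bp downstream of the start, in the UTR (chr1:64782972-64784236), held 171 ± 14.1 scaled fragments at 0h, 171 ± 8.86 at 4h, 122 ± 16.3 at 24h and 160 ± 5.79 at ERKi 24h. It fell by 0.5 ± 0.15 on the log2 scale at 24h (−0.5, adjusted p = 0.025), a call lost without 0h replicate 1 or 2 or 24h replicate 1 or 3 (log2 −0.5 to −0.4, adjusted p 0.059 to 0.13). The ERKi 24h difference of 0.4 had an adjusted p = 0.109, and 0.0185 with the block. The Fzd5 promoter region held 108 ± 12.4 at 24h and 147 ± 18.8 at ERKi 24h (0.44, adjusted p = 0.171, and 0.0412 with the block).

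Fzd7, a receptor linked to stem cells of several epithelia, changed in both directions at 24h. The region 37.5 kb upstream (chr1:59500651-59501958) went from 16.5 ± 1.83 to 28.4 ± 4.99 scaled fragments (0.77 ± 0.19, adjusted p = 0.0107). With the block the region 51.2 kb upstream was also higher at 24h (0.49, adjusted p = 0.0234, and 0.162 without it), and the region 128 bp downstream of the start, in the UTR, was higher at ERKi 24h (0.47, adjusted p = 0.0357, and 0.175 without it). The region 5.7 kb downstream (chr1:59543971-59545596) went from 117 ± 10.1 to 76.8 ± 2.07 (−0.61 ± 0.18, adjusted p = 0.0261), and ERKi 24h held 113 ± 17.3 there (0.54, adjusted p = 0.0771, and 0.00936 with the block). That 24h call was lost without 0h replicate 1 or 3 or any one of the 24h libraries (log2 −0.63 to −0.56, adjusted p 0.0517 to 0.0912). The 3 member regions with a peak in every 0h library and in no 24h library were all near Fzd7. The one 15.9 kb downstream (chr1:59554721-59555645) held 30, 25 and 31 fragments (not scaled) at 0h and 26, 13 and 21 at 4h, and at ERKi 24h it had a peak in replicate 3 alone (16). The ones 17.0 kb downstream (22, 15 and 25 at 0h) and 90.4 kb upstream (20, 27 and 18 at 0h) had no peak at 24h or ERKi 24h. The Fzd7 promoter region held 67.6 ± 15.2 scaled fragments at 0h and 66.7 ± 15.3 at 24h, with no call.

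The Fzd2 promoter region (chr11:102464586-102466285) held 59.9 ± 10.8 scaled fragments at 0h, 82.9 ± 12.9 at 24h and 93.2 ± 14.1 at ERKi 24h. The change at 24h was 0.47 (adjusted p = 0.108, and 0.031 with the block). A region 25.9 kb downstream of Fzd2 gained a peak at 24h (17, 13 and 17 fragments, not scaled). It was present in 2 of 3 libraries at ERKi 24h (18 and 17). Fzd4, the receptor of the retinal vessels that also binds Norrin, gained a region 36.8 kb downstream at 24h (40, 31 and 43 fragments, not scaled). ERKi 24h showed it in 1 library (13). The Fzd4 region 322 bp downstream of the start held 53.0 ± 6.35 scaled fragments at 0h and 37.9 ± 14.5 at 24h (−0.56, adjusted p = 0.184, and 0.0151 with the block). The 1 tested Fzd3 region had no call in either fit, and Fzd6 had no peak at 0h or 4h, 1, 0 and 2 peaks at 24h, 1 in 1 library at ERKi 4h, and 3, 1 and 3 at ERKi 24h (exact p = 0.3 against 24h).

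**Figure D5:**
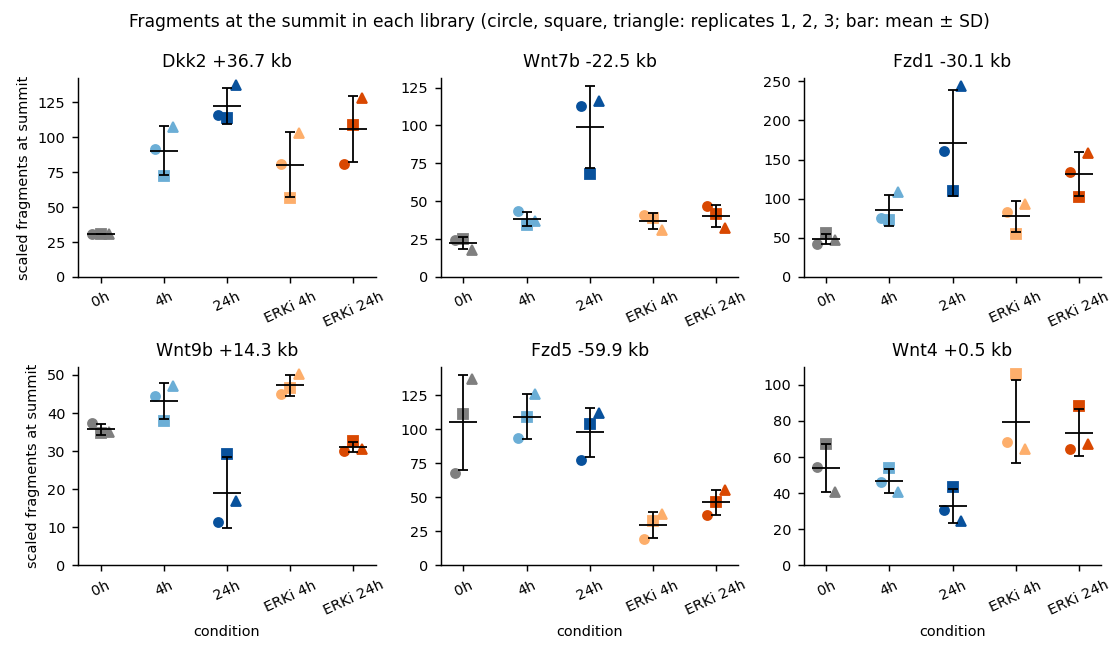
Scaled fragments at the summit (y axis, from 0) in each library of the 5 conditions for 6 regions, with the mean and SD as bars and a symbol for each replicate number. At Wnt7b 22.5 kb upstream all 24h libraries are above the others, and at Fzd5 59.9 kb upstream the ERKi libraries at 19.5 to 55.5 are below the 67.9 to 137 of the rest.

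Among the antagonists, Dkk2 held the region with the smallest adjusted p at 4h. It lies in the Dkk2 intron 36.7 kb downstream of the start (chr3:131783936-131786101) and held 30.6, 31.1 and 30.6 scaled fragments at 0h, 91.6, 72.2 and 107 at 4h and 116, 114 and 137 at 24h. With ERKi it held 81.1, 56.8 and 103 at 4h and 80.5, 109 and 128 at 24h. Every library with TGF-β lay above all 0h libraries. The change was 1.54 ± 0.23 at 4h (adjusted p = 0.00131), or 2.9-fold, and 1.99 ± 0.23 at 24h (adjusted p = 3.06e-05), or 3.96-fold. With ERKi the values differed from those without it by −0.2 at 4h (adjusted p = 1.0) and −0.23 at 24h (adjusted p = 0.661).

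More regions around Dkk2 gained a peak. The intronic region 45.3 kb downstream held 17, 11 and 15 fragments (not scaled) at 4h, 14 in 1 library at 24h and 13, 24 and 25 at ERKi 24h, with no peak at 0h. The regions 63.4 kb upstream (16, 30 and 23 fragments) and 47.8 kb upstream (31, 16 and 24) were gained at 24h. At ERKi 24h the first had no peak, which makes it the one member region lost under ERKi 24h, and the second had 17 and 18 fragments in 2 libraries. The number of non-promoter peaks of Dkk2 was 3, 4 and 4 at 0h, 4, 6 and 11 at 4h and 9, 11 and 9 at 24h.

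Dkk3, the divergent family member that does not act on Lrp5 and Lrp6 like the others, had 2 tested regions and both rose at 24h. The region 28.9 kb upstream (chr7:119330965-119332666) held 27.6, 33.6 and 43.8 scaled fragments at 0h, 68.1, 51.4 and 79.2 at 4h and 59.3, 50.4 and 87.0 at 24h. It rose by 0.92 ± 0.25 at 4h (adjusted p = 0.0493) and by 0.89 ± 0.25 at 24h (adjusted p = 0.0184). The region 21.5 kb upstream (chr7:119323745-119324481) went from 18.9 ± 1.82 to 27.3 ± 3.12 at 24h (0.53 ± 0.16, adjusted p = 0.0253). All 3 calls were lost without 0h replicate 1 or 0h replicate 2. Both 24h calls were lost also without 24h replicate 3 (adjusted p 0.0517 to 0.0944 at 28.9 kb and 0.0647 to 0.103 at 21.5 kb), with log2 values of 0.67 to 0.88 and 0.45 to 0.53. The 4h call was lost also without 4h replicate 1 or 3 (log2 0.77 to 0.91, adjusted p 0.134 to 0.238). ERKi 24h held 83.7 ± 18.2 at 28.9 kb upstream, a difference of 0.37 (adjusted p = 0.46, and 0.0448 with the block).

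Of the Sfrp genes, Sfrp5 had the 1 tested region, 5.5 kb downstream of the start (chr19:42270500-42271820). It held 79.8, 178 and 91.9 scaled fragments at 0h, 45.4, 114 and 42.5 at 24h and 85.0, 148 and 74.2 at ERKi 24h. Replicate 2 was the highest in every condition. The change at 24h was −0.86 ± 0.41 (adjusted p = 0.185, and 7.83e-05 with the block) and the ERKi 24h difference was 0.7 ± 0.41 (adjusted p = 0.382, and 0.000917 with the block). A region 15.2 kb upstream of Sfrp5 held 97, 125 and 72 fragments (not scaled) at 24h and 128, 91 and 65 at ERKi 24h, with no peak at 0h. Sfrp2 had 1 to 7 non-promoter peaks per library without a region in all libraries, and Sfrp1 and Dkk1 each had a peak in 1 library.

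The calls rest on the scale of the values. By fold enrichment over the local background 1 of the 26 calls passed the threshold, 17 kept their direction without passing it and 8 had the opposite direction. At the Dkk2 intron, the fold enrichment over local background went from 6.12 at 0h to 5.95 at 4h and 5.17 at 24h, while the scaled local background was 4.28, 14.4 and 22.9 fragments. On the scale of fold enrichment the changes there were −0.031 at 4h and −0.22 at 24h (log2). At Wnt7b 22.5 kb upstream the fold enrichment went from 3.44 at 0h to 5.91 at 24h (log2 change 0.78, adjusted p = 0.00477), the 1 call that passed on both scales, and the background from 5.96 to 15.7. At Fzd1 the 24h changes were 0.51 at 30.1 kb upstream (adjusted p = 0.0642) and 0.16 at 30.9 kb upstream (adjusted p = 0.607), and at Wnt9b the change was −0.63 (adjusted p = 0.121). The ERKi 24h differences were 0.23 at Wnt4 451 bp downstream (adjusted p = 0.558), 0.14 at Wnt16 18.1 kb upstream (adjusted p = 0.69) and −0.28 at Wnt7b 22.5 kb upstream (adjusted p = 0.399). The other calls that kept their direction had log2 values from −0.27 to 0.51 by fold enrichment. The direction of the 24h call was the opposite by fold enrichment at Wnt7b 4.1 kb downstream (−0.039), 2.9 kb downstream (−0.35) and 17.7 kb upstream (−0.1), Wnt4 45.9 kb upstream (0.28) and Dkk3 21.5 kb upstream (−0.03), none of them past the threshold on that scale. For ERKi 24h it was the opposite at Wnt7b 17.7 kb upstream (0.17). By fold enrichment, the difference at Fzd5 59.9 kb upstream was −0.27 for ERKi 4h (adjusted p = 1.0), with a background of 15.2 fragments at 4h and 4.4 at ERKi 4h. The directions given above are those of the height at the summit.

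The other genes of the pathway were taken from a list of 54 receptors, co-receptors, R-spondins, components of the β-catenin destruction complex, TCF/LEF partners, secretion factors, further antagonists and polarity genes. They held 342 regions, of which 96 in 34 genes had a peak in every library. At 4h, 4 were higher (3.55% of all regions) and 0 lower (0.26%) than at 0h, and at 24h 12 were higher (10.4%) and 7 lower (7.83%). ERKi 4h gave 0 calls by limma (5 regions with an unadjusted p under 0.05, and 17 at 4h) and ERKi 24h gave 7 higher (3.69% of all) and 2 lower (4.32%). With the block the higher and lower regions numbered 13 (11.0% of all) and 3 (5.0%) at 4h, then 23 (17.3%) and 16 (18.9%) at 24h. For ERKi 4h they were 2 (0.939%) and 0 (2.89%) and for ERKi 24h 15 (13.8%) and 7 (12.6%). The medians over the 96 regions were 0.013, −0.039, 0.045 and 0.1 (log2) in the same order, beside the medians of all regions given above. The lowest adjusted p at 4h were those of 2 intronic regions of Daam1, a formin of the polarity branch, 24.8 kb downstream (1.34 ± 0.21, adjusted p = 0.00236) and 6.0 kb downstream (1.29 ± 0.22, adjusted p = 0.003), and of an intronic region of the co-receptor Lrp6 (1.13 ± 0.25, adjusted p = 0.0194). At 24h they were those of Vangl1, a polarity protein, 3.0 kb upstream (−1.45 ± 0.19, adjusted p = 8.1e-05), Daam1, 68.5 kb downstream (1.56 ± 0.22, adjusted p = 0.000181), and Lgr6, a receptor of R-spondins, 339 bp downstream (1.71 ± 0.27, adjusted p = 0.000354). For ERKi 24h they were those of Daam1 24.8 kb downstream (1.01 ± 0.21, adjusted p = 0.00935), of Wls, which carries Wnt ligands to the cell surface (0.72 ± 0.16, adjusted p = 0.0125), and of Lgr4, another receptor of R-spondins (1.35 ± 0.31, adjusted p = 0.0134). At ERKi 4h the smallest was that of the same Vangl1 region (0.7, adjusted p = 0.21, and 0.0161 with the block), followed by regions of Gsk3b and Lrp5 (adjusted p = 0.743 and 0.802). The Daam1 region 24.8 kb downstream held 19.6 ± 1.09 scaled fragments at 0h, 51.1 ± 15.3 at 4h, 42.6 ± 7.83 at 24h, 68.4 ± 10.7 at ERKi 4h and 84.9 ± 4.43 at ERKi 24h.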

How the data were processed

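H3K27ac ChIP-seq peak lists of 15 libraries, 3 for each of 5 conditions, were used, and 10 RNA-seq and 3 input samples were not analysed here. The sample labels gave the condition of each library. Reads had been mapped by the authors to the mm9 genome (bowtie), and every library had its peaks called separately (MACS2, default settings). The deposited fold enrichment is a ratio over the local background, with no normalization between libraries. The deposited p and q values are −log10 p and −log10 q, and the deposited score was not used. The later steps of the authors on merged replicates are not in these lists. Read totals are not among the columns, and no counting interval is given.

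The height of each peak, in fragments over the summit, and its local background were obtained by solving the fold enrichment, taken as (fragments + 1) / (background + 1), and a Poisson p together, and 893694 of 893719 peaks were matched within 0.005 of −log10 p. Overlapping peaks were merged into regions. Start sites came from GENCODE vM1 on NCBIM37 (mm9). Log2 fragments, centred on the median of each library, were fitted with limma in one model of all 15 libraries (10 residual degrees of freedom) over the regions with a peak in every library. Peak numbers and percentiles were compared by exact permutation of libraries. The limma fit was tested on simulated data with independent noise in each library. Those data did not hold the shared deviations of libraries with the same replicate number.

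Replicate numbers in the labels are shared by all conditions. Deviations from the condition means correlated above 0.1 in 30 of 30 pairs of libraries with the same number (mean 0.581, 0.336 to 0.79). Between numbers the mean was −0.284. Deviations cancel out within a condition, so a negative mean follows from the calculation and is no further observation. The main fit leaves this pairing out. The block was kept as the alternative fit, with blocked values beside the results.

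The members, the pathway list, the marker list, the motifs and the tests were chosen with earlier results of these data known. Members are named that have a region past adjusted p 0.05 or a region seen in every library of one condition and in no library of its counterpart, together with Wnt4, which the study names, and the rest are given by counts. From the pathway list the 3 regions of smallest adjusted p are named per comparison. The alternatives were the replicate block, quantile normalization, fold enrichment or −log10 p in place of fragments, regions with missing peaks set to the lowest height of the library, a −log10 q of at least 10, the 20000 most significant peaks per list, other rules of overlap and merging (0.5 of the region, 1000 bp), promoters within 2500 bp, a limit of 50 kb, all annotated genes, a mean-variance trend and each library left out in turn. The block without ERKi 4h replicate 1 was added after seeing the data. The software was R 4.3.3 with limma 3.58.1 and Python 3.11.15 (pandas 2.3.3, NumPy 2.4.6, matplotlib 3.10.9, SciPy 1.17.1).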

Additional observations from a re-analysis of the deposited data

Results flagged for a closer look

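The effect of ERKi differed between 24h and 4h in 5 member regions by a test of the difference itself (limma with the replicate block, adjusted over all regions), and none of them was past the threshold without the block. The values are the log2 effect at 24h minus that at 4h. At Wnt7b 22.5 kb upstream the difference was −1.23 ± 0.26 (SE, adjusted p = 0.0188, and 0.372 without the block). At Wnt7b 17.7 kb upstream it was −1.02 ± 0.24 (adjusted p = 0.0324, and 0.372 without the block). At Fzd5 59.9 kb upstream it was 0.83 ± 0.18 (adjusted p = 0.0212, and 0.832 without the block), a smaller decrease at 24h than at 4h. At Sfrp5 5.5 kb downstream it was 0.69 ± 0.18 (adjusted p = 0.0489, and 1.0 without the block), and in the Uvrag intron 64.3 kb downstream of Wnt11 0.66 ± 0.15 (adjusted p = 0.0263, and 0.849 without the block). Without ERKi 4h replicate 1 the blocked differences in this order were −1.25 (adjusted p = 0.045), −1.0 (0.0798), 0.72 (0.0675), 0.71 (0.0963) and 0.66 (0.0661), so that 1 of the 5 was still past the threshold.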

How the results depend on the processing

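Counts of member regions past the threshold are given in the order 4h, 24h, ERKi 4h and ERKi 24h, where the values of the report sum to 2, 17, 2 and 5. With the replicate block, which pairs libraries by number, they were 9, 27, 5 and 25, and 5 for the difference of the ERKi effects (0 without it). The block kept all 26 calls of single regions. By fold enrichment they were 0, 2, 0 and 0, by −log10 p 2, 10, 0 and 2, with a −log10 q of at least 10 they were 1, 7, 0 and 1 (fewer regions are tested), and with missing peaks set to the lowest height 1, 37, 2 and 14, and 2 for the difference of the ERKi effects (more regions are tested). Quantile normalization gave 1 at 4h and otherwise the same counts. Over all regions the counts of 1027, 4906, 80, 2156 and 0 became 4300, 9753, 1032, 7091 and 954 with the block and 59, 1322, 0 and 328 by fold enrichment, and quantile normalization gave 160 for ERKi 4h. Fold enrichment moved the share of higher calls over all regions from 93.2% to 81.4% at 4h and from 57.0% to 46.7% at 24h. At 24h fold enrichment gave 1 higher call, which is also one by fragments, and 1 lower call, Sfrp5, which is not. By −log10 p there were 7 higher calls, all of them also calls by fragments, and 3 lower, of which 1 was. Quantile normalization gave 3 higher and 2 lower for ERKi 24h. With the block and without ERKi 4h replicate 1, an alternative chosen after seeing the data, ERKi 4h gave 3 member regions and 439 of all regions, and the difference of the ERKi effects 1 and 442.

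Fold enrichment turned the direction of 8 of 26 calls, and the cause was not tested beyond the background values given above. At 24h these were Wnt7b 4.1 kb downstream (−0.039), 2.9 kb downstream (−0.35) and 17.7 kb upstream (−0.1), Dkk2 36.7 kb downstream (−0.22), Wnt4 45.9 kb upstream (0.28) and Dkk3 21.5 kb upstream (−0.03), and the others were Dkk2 at 4h (−0.031) and Wnt7b 17.7 kb upstream for ERKi 24h (0.17). By fold enrichment the promoter percentile of Wnt7b changed by −3.64 at 4h and −9.31 at 24h and that of Wnt4 by −3.82 for ERKi 4h, each against the direction by fragments.

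Gained regions at 4h numbered 0 with a −log10 q of at least 10 and 0 with a cover of 0.5, and at 24h 5 among the 20000 most significant peaks and 9 with that cover. Lost regions at 24h numbered 1 with either limit on peaks. For ERKi 4h gained regions numbered 0 with either limit and 1 with that cover or with merging within 1000 bp, and lost regions 2 among the 20000 peaks and 2 with that cover. For ERKi 24h gained regions numbered 0 with the −log10 q limit and 0 with merging, and lost regions 3 with that limit and 2 among the 20000 peaks. The difference in promoter peaks for ERKi 4h was −1.0 with promoters within 2500 bp and 0.0 with either limit, and for ERKi 24h 0.333 with the −log10 q limit. The difference in non-promoter peaks at 24h was −0.333 among the 20000 peaks.

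Leaving out each library in turn gave 1 to 2 member regions at 4h, 9 to 16 at 24h (9 without 0h replicate 1, 11 without 24h replicate 1), 0 to 2 for ERKi 4h (0 without 4h replicate 3 or ERKi 4h replicate 1) and 2 to 6 for ERKi 24h (2 without ERKi 24h replicate 2). Over all regions it gave 448 to 912, 3331 to 5129, 8 to 49 (8 without ERKi 4h replicate 1) and 1226 to 1780, and 0 to 1 for the difference of the ERKi effects, where member regions stayed at 0. The numbers of regions so far are those of the fit without the block. Of the 26 calls of single regions in that fit, 11 were kept without each library and 15 were lost without at least 1. Gained and lost regions numbered 4 to 6 and 0 to 2 at 4h, 14 to 21 and 3 to 6 at 24h (6 without 0h replicate 2), 2 to 4 and 0 to 2 for ERKi 4h, and 1 to 8 (8 without ERKi 24h replicate 2) and 1 to 4 (4 without ERKi 24h replicate 1) for ERKi 24h. The difference in non-promoter peaks ranged from 0.833 to 14.8 at 4h, 20.3 to 26.8 at 24h, −2.83 (without 4h replicate 1) to 11.2 for ERKi 4h and −4.33 (without ERKi 24h replicate 1) to 12.7 for ERKi 24h. That in promoter peaks ranged from −0.167 (without ERKi 4h replicate 2) to 0.833 for ERKi 4h and from −1.67 to −0.667 for ERKi 24h. With 3 libraries per condition and lists that hold called peaks only, smaller changes and regions near the calling threshold are not resolved.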
